A study of Gallus gallus with 9 samples.

Results

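The genes described here are metalloproteases, tissue inhibitors and serpins, families chosen by name, many of whose members act on or around the extracellular matrix. Members were all probe sets whose single gene symbol in the platform annotation was ADAM, ADAMTS, ADAMTSL, MMP or TIMP followed by a digit, or began with SERPIN, and where a gene had several probe sets the one with the highest mean over all arrays stood for it. This gave 64 genes (142 probe sets) of 13051 named genes on the array, namely 13 ADAM, 20 ADAMTS and ADAMTSL, 14 MMP, 3 TIMP and 14 SERPIN genes. Several members carry a family name without the activity. ADAM22 and ADAM23 lack a working catalytic site, ADAMTSL proteins have no protease domain, and SERPINF1 and SERPINH1 do not inhibit proteases.

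RNA came from facial prominences of untreated chicken embryos of unknown genotype at Hamburger Hamilton stage 18, incubated at 38 degrees C. The 3 groups were the mandibular prominence (lower jaw bud), the maxillary prominence (lateral upper jaw) and the frontonasal mass, taken between the nasal pits, each with mesenchyme and epithelium together. Each of the 3 biological replicates of a prominence was a pool of 26 to 32 dissected pieces on 1 Affymetrix chicken array, so embryos within a pool cannot be told apart. Values are probe set signals in intensity units, scaled to a common median, and log2 differences are on the scale of log2(signal + 16), which understates the change of dim genes.

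In an early facial bud, matrix proteases clear and remodel the hyaluronan, versican and collagen rich matrix through which crest mesenchyme grows, and membrane ADAMs release ligands and receptors from the cell surface. MMPs are held in check by TIMPs, and MMP2 is itself activated at the cell surface by membrane-type MMPs together with TIMP2. Some serpins trap serine proteases of the plasminogen and clotting cascades, and a few have become chaperones or secreted factors. In the mouse, ADAMTS9 and ADAMTS20 act together on versican during palate closure.

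Arrays of a group correlated at 0.979 to 0.987 on average, and their deposited medians were 34.3 to 37.3. The background of an array, the 95th percentile of 576 probe sets against viruses and reporter genes, was 32.7 to 37.4. Frontonasal pool 2 stood apart. The summed signal of 35 measured markers of visceral organs was 9157 on that array against 2775 to 3230 on the 8 others, with 24 of the 35 above background against 13 to 17. Of these markers 9 exceeded the highest other array by more than 1 on the log2 scale, namely FGA, FGB, FGG, F2, TTR, APOA1, APOH, KNG1 and VTN, all liver products, while other liver products such as ALB, AFP, TF and APOB did not exceed it. The 9 measured muscle markers summed to 1008 on that array against 319.9 to 495.7, of which the transcription factor TCF21 gave 701 against at most 121. The list did not rise as a whole. ACTC1 was also highest there (103 against at most 64.2), but MYF6 (14.7 against 45.3 to 67.3), MYF5 and MYOD1 were lowest there. DES, MUSK, MYOG and TBX1 lay inside the range of the other arrays. Some markers in pool 2 differed only from frontonasal pools 1 and 3, without exceeding all other arrays. Among these were NKX2-5 (90.6 against 2.42 and 1.05) and TNNT2 (115 against 20.2 and 45.8) of the visceral list. Endothelial CDH5 (645 against 340 and 314) and KDR (127 against 53.7 and 55.7) did likewise, whereas endothelial FLI1 was lower (709 against 866 and 842). Counts of calls against the frontonasal mass below are given with and without this pool, and so are many of the single differences. Other marker lists also differed between prominences. In the frontonasal pools the 11 forebrain and placode markers summed to 1602 to 2064 against 612 to 936.6 elsewhere, and the 15 endothelial markers to 2034 to 2652 against 3081 to 3793. Of the forebrain and placode list, OTX2 (396 to 571 against 295 to 653), SOX2 (13.6 to 29.5 against 19.3 to 61), EMX2 and LHX2 overlapped the other pools. HES5, NR2E1, PAX6, SIX3, SIX6, SOX3 and ZIC1 were higher in every frontonasal pool than elsewhere. The 9 measured epithelial markers summed to 5786 to 6607 against 4194 to 5521, and the 15 mesenchyme markers to 6851 to 7380 against 6882 to 9091. EPCAM (2442 to 3785) and VIM (3139 to 4373) were the largest terms of these sums, and single markers went both ways. In frontonasal pools CDH1 was higher (913 to 1453 against 499 to 732) and KRT14 lower (281 to 361 against 442 to 624). Likewise ALX1 was higher (586 to 727 against 106 to 481) and PRRX1 lower (662 to 973 against 1510 to 2144). The 10 measured erythroid markers summed to 21235 to 21875 against 16434 to 21642. The ratio of 3' to 5' signal for GAPDH, a sign of RNA quality, was 1.27 to 1.51 in frontonasal and 1.19 to 1.29 in the other pools. For actin the same ratio did not separate them, at 1.88 to 2.41 in frontonasal and 1.99 to 2.46 in the other pools. The part of these marker lists and of RNA quality in the results below was not tested, and in such pools fewer cells of a type and less RNA per cell cannot be told apart.

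Of the 64 members, 32 (50%) were above background on all 9 arrays, 14 on some arrays and 18 on none. Among all probe sets 41.2% were above background on every array. Each member stands by its brightest probe set, whereas all probe sets include dimmer duplicates and 11094 without a gene. Shares over all probe sets, here and below, are therefore not matched to the members in brightness or annotation. The part of this in any excess among the members was not tested. The 32 were ADAM8, ADAM9, ADAM9L, ADAM10, ADAM17, ADAM22, ADAM23, ADAM32 and ADAM33, ADAMTS6, ADAMTS9, ADAMTS10, ADAMTS13, ADAMTS15, ADAMTS17, ADAMTS20 and ADAMTSL1, MMP2, MMP15, MMP16, MMP23A, MMP24 and MMP28, TIMP2 and TIMP3, and SERPINB6, SERPINB10B, SERPINE2, SERPINF1, SERPING1, SERPINH1 and SERPINI1. The secreted collagenases and stromelysin-like enzymes MMP1, MMP10 and MMP13, the gelatinase MMP9, the membrane-type MMP17, the procollagen N-proteinases ADAMTS2 and ADAMTS14, ADAMTS1, ADAMTS5, ADAMTS7, ADAMTS19, ADAMTSL3, ADAM15, ADAM20L, TIMP4, SERPINB5, SERPINB12 and SERPINE3 were not above background on any array. The remaining 14 were ADAM12, ADAM19, ADAMTS3, ADAMTS8, ADAMTS12, ADAMTS18, ADAMTSL2L, MMP3, MMP7, MMP27, SERPINA10, SERPINB1, SERPINB2 and SERPIND1. A run of 6 MMP genes, MMP13, MMP10, MMP3, MMP1, MMP27 and MMP7, holds direct neighbours in the reference gene order, and of these 6 only MMP27 was above background on all 3 arrays of a group.

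The frontonasal mass most often held the highest signal. The highest of the 9 arrays was a frontonasal one for 39 members (60.9%), a maxillary one for 16 (25%) and a mandibular one for 9 (14.1%), whereas over all probe sets these shares were 39.6%, 30.7% and 29.7%. Of the 32 members above background on every array, 22 (68.8%) had their highest group mean in the frontonasal mass, against 38.6% of the 15834 probe sets that met the same condition. Of the 39, frontonasal pool 1 held the maximum for 18, pool 3 for 9 and pool 2 for 12. The share of pool 2 was 18.8% of members, against 11.9% of all probe sets. Without pool 2 a frontonasal array was highest for 30 members (46.9%, against 32.0% of all probe sets). Then 18 of the 32 (56.2%, against 39.3%) had their highest mean in the frontonasal mass. These are descriptions without a test.

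**Figure D1:**
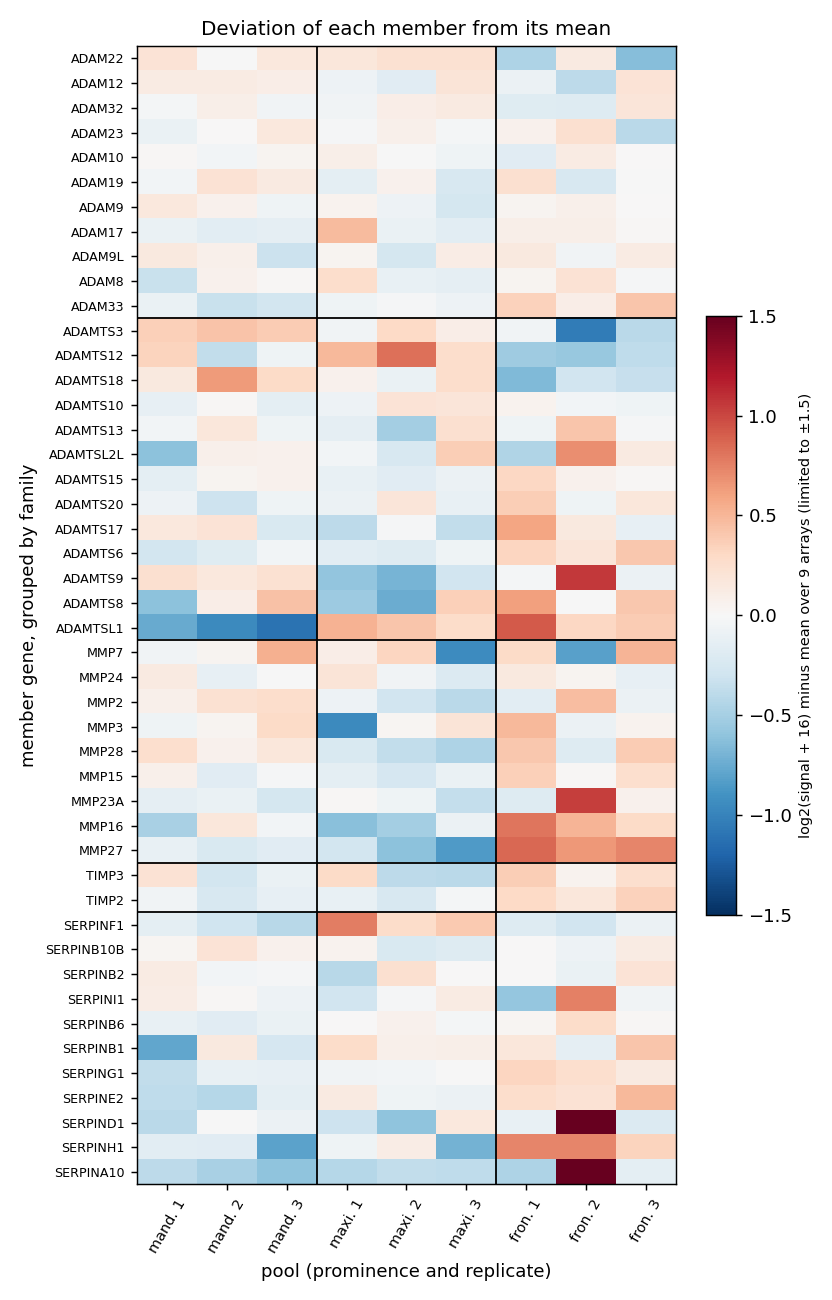
Deviation of each of the 46 members above background on at least 1 array from its own mean over 9 arrays, on the scale of log2(signal + 16), with pools in columns and genes in rows by family (colour limited to ±1.5). MMP27 and SERPINH1 are high in all 3 frontonasal pools, ADAMTSL1 is low in all 3 mandibular pools, and SERPINA10 and SERPIND1 are high in frontonasal pool 2.

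The first comparison asked how protease and inhibitor transcripts of the lower jaw bud differ from those of the frontonasal mass. Of the 64 members 6 differed (9.38%, limma adjusted p under 0.05), against 2.53% of all 38439 probe sets. Mandibular signal was lower for 5 of them, ADAMTSL1, MMP27, SERPINE2, ADAM33 and ADAMTS6 (1.35% of all probe sets were called lower), and higher for ADAMTS18 (1.18%). The median log2 difference of the 64 was -0.06, with 43 below and 21 above 0, against a median of 0.01 over all probe sets. Groups did not overlap for 15 members (23.4%, 12 lower and 3 higher), against 18.0% of all probe sets (9.0% lower and 9.04% higher), and without pool 2 for 23 members in all, 17 lower and 6 higher (35.9%, against 29.2%). With only these 2 groups in the fit, ADAMTSL1 and MMP27 remained of the 6 calls, and with a pseudocount of 1 ADAMTSL1 did.

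ADAMTSL1, also called punctin, is a secreted matrix glycoprotein built from the ancillary domains of an ADAMTS enzyme. Its signal was 64.8, 54.4 and 47.6 in the mandibular pools, 180, 167 and 149 in the maxillary pools and 243, 154 and 162 in the frontonasal pools. The mandibular values lay below all others without overlap, while maxillary and frontonasal values overlapped. The log2 difference was -1.48 ± 0.17 (SE, limma adjusted p = 0.00306, n = 3 per group) against the frontonasal mass and -1.34 ± 0.17 (adjusted p = 0.0271) against the maxillary prominence. Between maxillary and frontonasal pools it was -0.13 ± 0.17 (adjusted p = 0.813). The difference from the frontonasal mass held in all 9 fits that left out 1 array, with adjusted p values of 0.00395 to 0.019. That from the maxillary prominence was lost in the 6 fits without a mandibular or a maxillary pool (0.0855 to 0.111). The other 4 probe sets of the gene were below background on all arrays, and averaging all 5 gave an adjusted p of 0.109 against the frontonasal mass.

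MMP27, a matrix metalloproteinase of the stromelysin-like gene cluster, was the one member called in both comparisons with the frontonasal mass. Its signal was 47.2, 38.6 and 41.9 in the frontonasal pools, 16.1, 13.7 and 14.9 in the mandibular pools and 12.8, 6.62 and 3.35 in the maxillary pools. Only the frontonasal values were above background, and they did not overlap with the others. The log2 difference from the frontonasal mass was -0.92 ± 0.14 for mandibular pools (limma adjusted p = 0.0115) and -1.33 ± 0.14 for maxillary pools (adjusted p = 0.00216). With the dimmer pools set to background, frontonasal signal was at least 1.22-fold higher than mandibular and at least 1.18-fold higher than maxillary signal, so the larger fitted values depend on signals below background. Without frontonasal pool 2 the differences were -0.97 (0.021) and -1.38 (0.00541). Its mandibular call was lost without mandibular pool 2 (adjusted p = 0.0538) and with a pseudocount of 1 (0.119).

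SERPINE2, a cell surface inhibitor of thrombin and urokinase, had signals of 342, 332 and 406 in mandibular, 499, 431 and 422 in maxillary and 547, 529 and 636 in frontonasal pools. The groups formed 3 levels without overlap. Mandibular against frontonasal pools gave -0.64 ± 0.12 (limma adjusted p = 0.0248), whereas maxillary pools differed from frontonasal ones by -0.33 ± 0.12 (adjusted p = 0.241) and mandibular from maxillary ones by -0.31 ± 0.12 (0.577), which did not pass. The mandibular call was lost without mandibular pool 1 (0.0971) or 2 (0.0997) and without frontonasal pool 1 (0.0632) or 3 (0.0753), and was kept without pool 2 (-0.7, 0.0352).

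ADAM33, a membrane-anchored metalloprotease, gave 326, 276 and 288 in mandibular, 337, 348 and 334 in maxillary and 451, 377 and 476 in frontonasal pools. Again the groups did not overlap, with the frontonasal mass highest. The mandibular difference was -0.53 ± 0.11 (limma adjusted p = 0.0396) and the maxillary one -0.34 ± 0.11 (0.188). Without frontonasal pool 2 these became -0.62 ± 0.10 (0.0174) and -0.43 ± 0.10 (0.0839). Each of the 8 other fits without 1 array lost the mandibular call (0.0584 to 0.142).

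ADAMTS6, a secreted enzyme that in the mouse acts on fibrillin microfibrils, had signals of 866, 925 and 1027 in mandibular, 945, 922 and 1006 in maxillary and 1325, 1201 and 1399 in frontonasal pools. All frontonasal values exceeded all others, and mandibular and maxillary values overlapped. Its mandibular difference was -0.47 ± 0.10 (limma adjusted p = 0.041) and its maxillary difference -0.44 ± 0.10 (0.0581). The mandibular call was kept without frontonasal pool 2 (-0.53 ± 0.10, 0.0384) and lost in each of the 8 other such fits (0.0549 to 0.142). This probe set is of the type that can match several transcripts. A second probe set of the gene, also above background on all arrays, differed by 0.12 (adjusted p = 0.709), and averaging all 5 gave 0.868.

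ADAMTS18, a secreted protease needed for normal eye development in the mouse, was the member that was higher in the mandibular pools, at 45.2, 70.5 and 51.3 against 19, 29.2 and 27.5 in the frontonasal pools. Maxillary signals were 41.7, 35.7 and 50.5, above the frontonasal ones and overlapping the mandibular ones. No frontonasal value was above background, and the difference was 0.79 ± 0.16 (limma adjusted p = 0.0421), at least 1.61-fold. This call did not hold in any of the 9 fits that left out 1 array (0.0555 to 0.124). ADAMTS18 has 2 probe sets, and only the brighter one is described here. ADAMTS3, which removes the N-propeptide of fibrillar procollagen and activates a lymphatic growth factor, showed values of the same direction, with 85.7, 91.3 and 87.9 in mandibular, 60.7, 82.4 and 69.2 in maxillary and 60.7, 22.6 and 44.1 in frontonasal pools. Its mandibular difference of 0.89 ± 0.22 did not pass (adjusted p = 0.0904), except without frontonasal pool 1 (0.0366). Without pool 2 it was 0.62 ± 0.14 (0.0743). Its next brightest probe sets differed by -0.29 and 0.3.

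**Figure D2:**
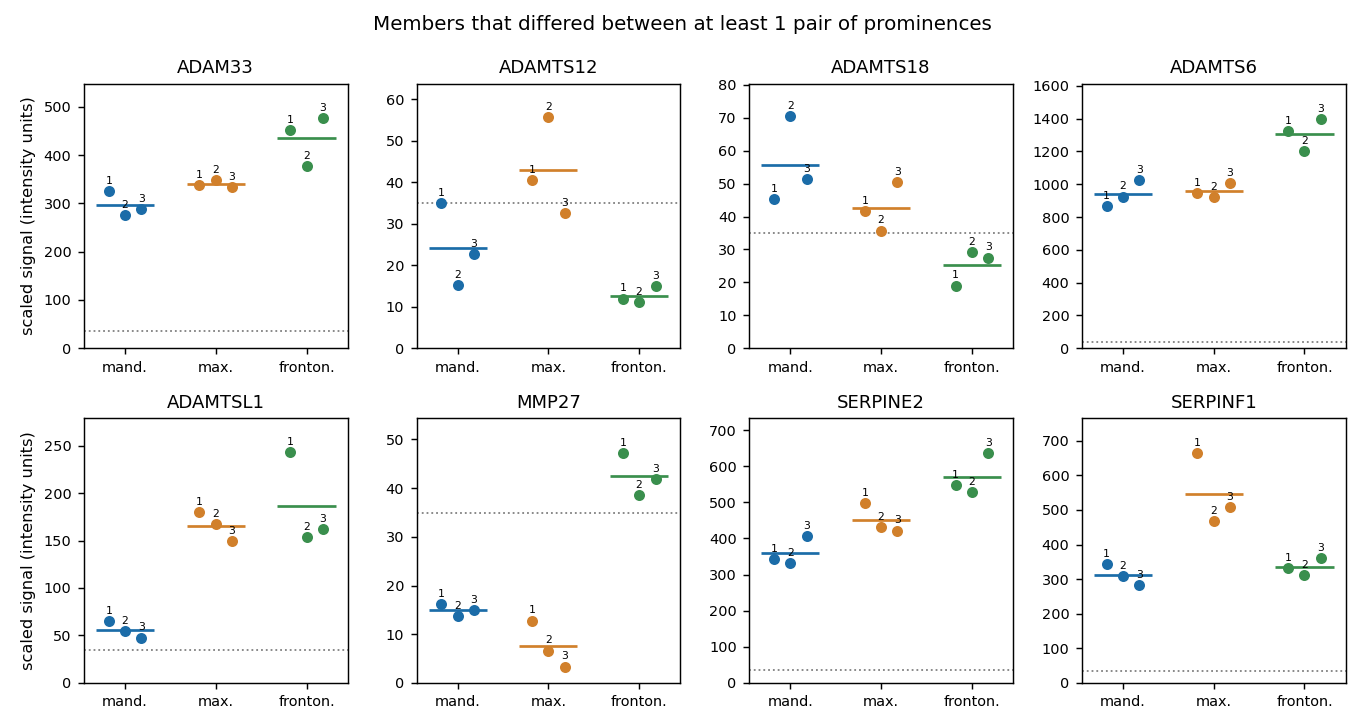
Scaled signal (intensity units, from 0) of the 8 members that differed between at least 1 pair of prominences, with a point for each pool (numbered by replicate), a bar for the group mean and a dotted line for the mean background of 9 arrays. ADAMTSL1 is low only in the mandibular pools, MMP27 is above background only in the frontonasal pools and SERPINF1 is highest in the maxillary pools.

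The next comparison set the maxillary prominence against the frontonasal mass, its neighbour in the upper beak. It shares the frontonasal arrays with the first, so the 2 comparisons are not independent. Of the 64 members 3 differed (4.69%), against 2.25% of all probe sets, with SERPINF1 and ADAMTS12 higher (0.905% of all probe sets) and MMP27 lower (1.34%) in the maxillary pools. The median of the members was -0.11, with 43 below 0 and 20 above, against 0 over all probe sets. Groups did not overlap for 20 members (31.2%, 15 lower and 5 higher), against 17.6% of all probe sets (9.01% lower and 8.54% higher), and without pool 2 for 17 lower and 5 higher (34.4%, against 27.7%).

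SERPINF1 encodes pigment epithelium derived factor, a secreted serpin known for restraining blood vessel growth. Its signal was 664, 468 and 509 in maxillary pools, 344, 309 and 283 in mandibular pools and 332, 311 and 361 in frontonasal pools. Every maxillary value exceeded every other value. The maxillary minus frontonasal difference was 0.67 ± 0.14 (limma adjusted p = 0.0476), and it did not pass in any of the 9 fits that left out 1 array (0.0592 to 0.122, the value without frontonasal pool 2 being 0.12). Mandibular minus maxillary was -0.77 ± 0.14 (adjusted p = 0.0982). The 2 dimmer probe sets of the gene gave -0.87 and -0.11, and the average of all 3 reversed the maxillary difference to -0.1 (adjusted p = 0.882).

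ADAMTS12, a secreted protease that cleaves cartilage oligomeric matrix protein, had maxillary signals of 40.4, 55.7 and 32.5 against 11.9, 11.1 and 14.9 in the frontonasal and 34.9, 15.2 and 22.6 in the mandibular pools. Maxillary and frontonasal values did not overlap, but only 2 maxillary values were above background. The difference was 1.02 ± 0.20 (limma adjusted p = 0.0361), and with the frontonasal pools set to background maxillary signal was at least 1.23-fold higher. This call was lost in 6 of the 9 fits that left out 1 array (0.0661 to 0.117), namely without any of the frontonasal pools (0.0922 for pool 2), without maxillary pool 1 or 2 and without mandibular pool 3. A second, dimmer probe set was also called (0.51, adjusted p = 0.0304), although all its signals were below background.

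Several members with larger differences did not pass. MMP16, a membrane-type MMP able to activate MMP2, had signals of 284, 229 and 194 in frontonasal pools against 95.8, 105 and 146 in maxillary and 107, 179 and 152 in mandibular pools, and frontonasal values lay above the others. Its differences were -0.94 ± 0.21 for maxillary (limma adjusted p = 0.0692) and -0.65 ± 0.21 for mandibular pools (0.211). Without pool 2 they were -0.95 (0.136) and -0.66 (0.292). Its other 2 probe sets had the same sign in both comparisons. MMP14 had no probe set among the members, so its signal is not described. SERPINH1, the endoplasmic reticulum chaperone of procollagen, had signals of 546, 549 and 412 in frontonasal, 308, 349 and 191 in maxillary and 288, 286 and 178 in mandibular pools. These also separated without overlap, at -0.82 ± 0.25 (0.174) and -0.98 ± 0.25 (0.102), or -0.76 (0.313) and -0.91 (0.201) without pool 2. In each prominence pool 3 was the lowest.

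The membrane-type MMP15 gave 407, 319 and 377 in frontonasal and 284, 261 and 292 in maxillary pools (-0.38 ± 0.11, limma adjusted p = 0.161, and -0.47 with 0.0832 without pool 2). Its mandibular values of 333, 278 and 310 overlapped the frontonasal ones (-0.25 ± 0.11, limma adjusted p = 0.389, and -0.34 with 0.188 without pool 2). TIMP2, which both inhibits MMPs and helps to activate MMP2, was at 150, 136 and 156 in frontonasal, 109, 98.8 and 117 in maxillary and 114, 98.4 and 108 in mandibular pools. Frontonasal values lay above all others, with differences of -0.39 ± 0.09 (limma adjusted p = 0.0818) and -0.41 ± 0.09 (0.068), or -0.44 (0.0899) and -0.46 (0.0682) without pool 2. MMP15 and TIMP2 have 2 probe sets each, and only the brighter one of each gene is described here. TIMP3, the matrix-bound inhibitor of MMPs and of ADAM17, overlapped in all comparisons, with group means of 166 ± 19.5 (SD, n = 3) in frontonasal, 126 ± 42.1 in maxillary and 135 ± 26.5 in mandibular pools. None of the 3 TIMP genes passed in any comparison by limma, with or without pool 2, and TIMP2 had an unadjusted p under 0.05 in both comparisons with the frontonasal mass.

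The third comparison set the lower against the upper bud of the same arch. Only ADAMTSL1, lower in the mandibular pools, passed (1 of 64, 1.56%), against 0.263% of all probe sets in either direction and 0.0911% lower, and 8 members (12.5%) had an unadjusted p under 0.05, against 7.11% of all probe sets. The median of the members was 0.02, against 0 over all probe sets, and the groups did not overlap for 11 members (17.2%, 5 higher and 6 lower), against 13.5% of all probe sets (7.44% higher and 6.03% lower). MMP2, the gelatinase that acts on basement membrane collagen, had signals of 927, 1029 and 1060 in mandibular and 830, 717 and 658 in maxillary pools, a difference of 0.45 ± 0.17 (limma adjusted p = 0.6). Frontonasal MMP2 values were 787, 1218 and 823 and spanned both groups, with pool 2 the highest. Against the frontonasal mass MMP2 did not pass, with differences of 0.12 (0.843) in mandibular and -0.33 (0.443) in maxillary pools, or 0.31 (0.29) and -0.13 (0.725) without pool 2.

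In a moderated F test over the 3 prominences 3 members differed (4.69%), MMP27 (limma adjusted p = 0.00375), ADAMTSL1 (0.00411) and SERPINF1 (0.0362), against 2.64% of all probe sets. SERPINF1 lost this call in 8 of the 9 fits that left out 1 array (up to 0.0948), and MMP27 and ADAMTSL1 in 0.

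**Figure D3:**
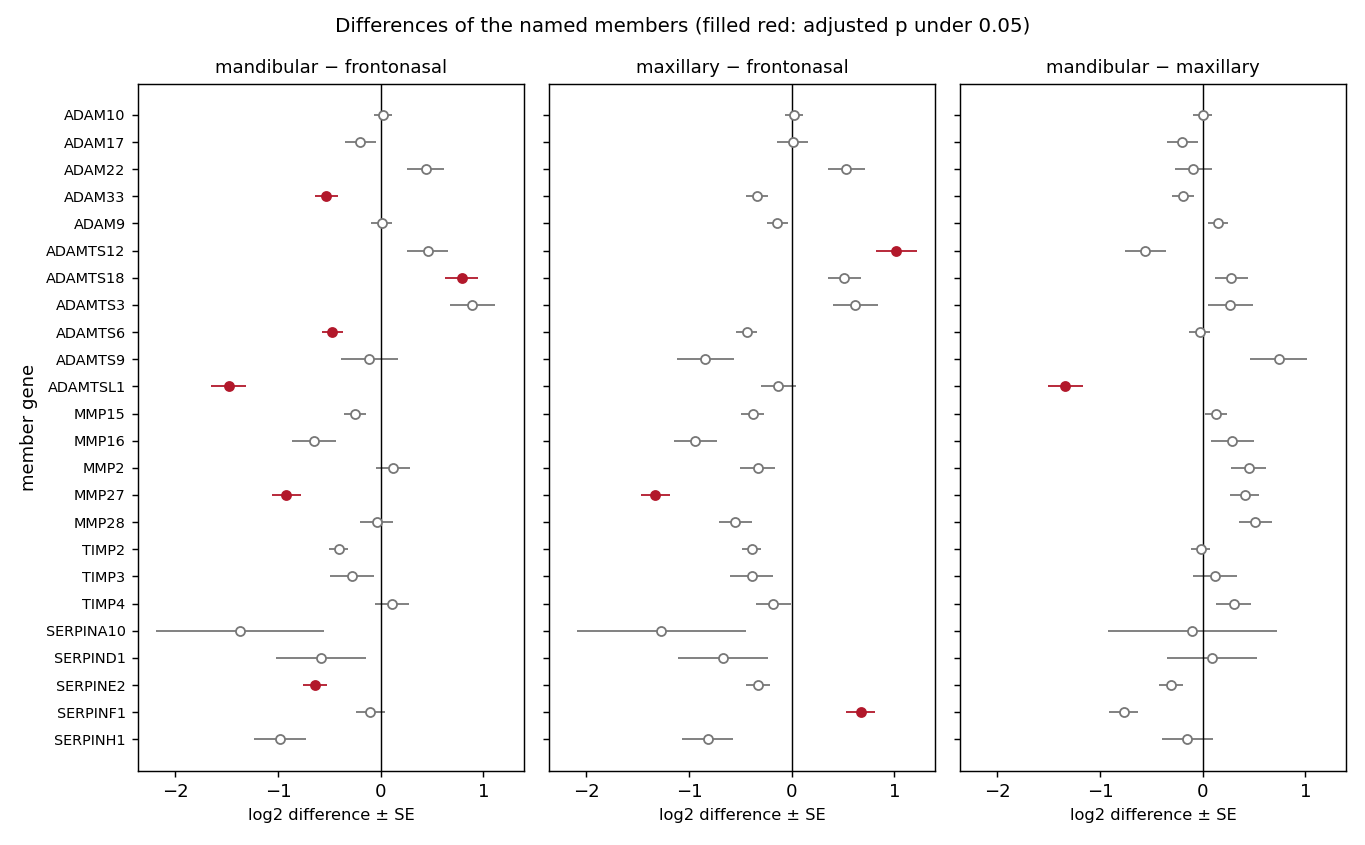
Log2 differences ± SE of the 24 named members in the 3 comparisons (panels), with filled red points where the adjusted p was under 0.05. MMP27 passed in both comparisons with the frontonasal mass, and ADAMTSL1 in both comparisons with the mandibular prominence.

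ADAM10, ADAM17 and ADAM9, named for their roles or signal, did not pass in any comparison, with or without pool 2. ADAM10, which cleaves notch receptors and cadherins, had group means of 1489 ± 44.1 (SD, n = 3) in mandibular, 1487 ± 79.5 in maxillary and 1469 ± 149 in frontonasal pools. The 95% intervals of its log2 differences ran from -0.19 to 0.24 for each of the other prominences against the frontonasal mass and from -0.21 to 0.22 between mandibular and maxillary pools, so differences inside those bounds remain possible. ADAM17, which releases tumour necrosis factor and ligands of the epidermal growth factor receptor, had mandibular values of 236, 225 and 229 below the frontonasal 271, 270 and 257, at -0.20 ± 0.15 (limma adjusted p = 0.668). Among the maxillary pools, pool 1 was high at 358, and pools 2 and 3 were at 235 and 225. ADAM9 differed by 0.01 ± 0.10 and -0.14 ± 0.10 from the frontonasal mass in mandibular and maxillary pools.

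Calls also moved when frontonasal pool 2 was left out. Against the frontonasal mass, 6 members again differed in the mandibular pools (9.38%, against 2.83% of all probe sets), 5 of them shared with the fit to all arrays. Of these, 1 was higher and 5 were lower, against 1.54% and 1.29% of all probe sets. ADAM22 was gained and ADAMTS18 lost (adjusted p = 0.0565). In the maxillary pools 3 members differed (4.69%, against 2.07%), of which 1, MMP27, was shared. The 1 higher and 2 lower members stood against 0.942% and 1.13% of all probe sets. Here ADAM22 and MMP28 were gained and SERPINF1 and ADAMTS12 lost. The F test passed 6 members (9.38%, against 2.62%), namely ADAM22, MMP28, ADAMTS9, ADAM33, ADAMTSL1 and MMP27. In the comparison of mandibular with maxillary pools ADAMTSL1 again was the one member to pass, against 0.453% of all probe sets (0.32% higher and 0.133% lower).

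ADAM22, a catalytically inactive neuronal receptor, was at 77.4 and 66.3 in frontonasal pools 1 and 3 but at 125 in pool 2, against 132, 112 and 127 in mandibular and 129, 134 and 134 in maxillary pools. With all arrays its differences were 0.44 ± 0.18 and 0.53 ± 0.18 (limma adjusted p = 0.33 and 0.224). Without pool 2 they were 0.67 ± 0.10 (0.0155) and 0.76 ± 0.10 (0.0104). Of its other 3 probe sets, 1 was above background on 1 array and 2 on none.

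MMP28, also called epilysin, had values of 244 and 239 in frontonasal pools 1 and 3 and 156 in pool 2, against 217, 189 and 204 in mandibular and 151, 136 and 126 in maxillary pools. Its maxillary difference was -0.55 ± 0.16 with all arrays (limma adjusted p = 0.155) and -0.75 ± 0.10 without pool 2 (0.0126). ADAMTS9, a versican-cleaving protease, stood at 397 in pool 2 against 178 and 171 in the other frontonasal pools, 218, 205 and 217 in mandibular and 116, 106 and 146 in maxillary pools. Maxillary values lay below all others with or without pool 2. No pairwise difference of ADAMTS9 passed, and mandibular minus maxillary was 0.74 ± 0.28 with all arrays (limma adjusted p = 0.6) and 0.74 ± 0.11 without pool 2 (0.0502), while its F test gave 0.287 and 0.0345. ADAMTS9 has 9 probe sets and MMP28 has 2, and only the brightest of each gene is described here.

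A pair of serpin genes, SERPINA10 and SERPIND1, was highest in pool 2 by the widest margin among the members. SERPINA10, a liver-made inhibitor of clotting factor X, had a signal of 300 in pool 2, at least 8.03-fold above the other arrays when these are raised to background, and signals of 5.78 to 14 on the 8 other arrays, all below background. SERPIND1, a liver-made thrombin inhibitor known as heparin cofactor, was at 153 in pool 2 and at 21.4 to 47.7 elsewhere, 3.21 times the highest other value. SERPING1, another plasma serpin, was not raised in pool 2, with 80.4 there against 85.8 and 72.9 in the other frontonasal pools. SERPINI1 was raised, at 418 against at most 264 elsewhere, and so was MMP23A, at 176 against at most 81.7. Of the other proteases listed below, plasminogen (PLG) was at 157 there against at most 70. Pool 2 exceeded the highest other array by more than 1 on the log2 scale for SERPINA10 and SERPIND1, 2 of 64 members (3.12%), and for 0.268% of all probe sets. Neither gene passed any comparison with or without pool 2. Without it SERPINA10 differed by -0.19 ± 0.12 and -0.09 ± 0.12, where the full fit gave -1.37 ± 0.82 and -1.27 ± 0.82 for mandibular and maxillary pools (limma adjusted p = 0.535 and 0.57). In the same array the fibrinogen gene FGB reached 2291 and prothrombin (F2) 157, against highest values elsewhere of 75.9 and 2.68. These are 2 of the 9 visceral markers, of 35 measured, that exceeded the highest other array by more than 1 on the log2 scale. Other liver products did not exceed it, such as ALB (55.8 against at most 63.5) and TF (1244 against at most 1343). The cause of the serpin signals was not tested.

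**Figure D4:**
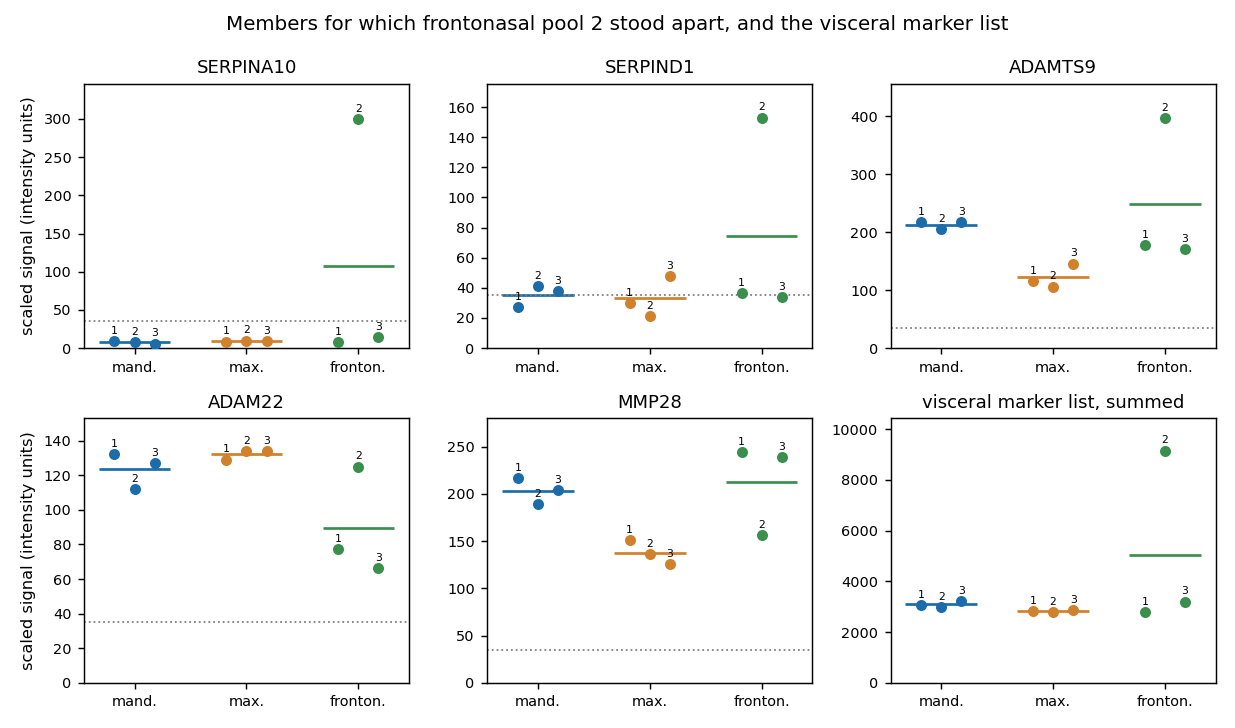
Scaled signal (intensity units, from 0) of 5 members named in connection with frontonasal pool 2, and the summed signal of 35 visceral markers. Points are numbered by pool, bars are group means and a dotted line is the mean background. For ADAM22 and MMP28, pool 2 lies apart from frontonasal pools 1 and 3 but inside the range of the other prominences. SERPINA10 and SERPIND1 are high in pool 2, where the visceral sum is 9157 against at most 3230 on the other arrays.

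Other genes of the pericellular protease system came from lists of further proteases, further inhibitors and substrates. Of 23 other proteases measured, 1 was higher and 3 were lower in the mandibular than in the frontonasal pools, and 19 did not pass, where 1.18% and 1.35% of all probe sets were called higher and lower. The same counts held for maxillary pools (0.905% and 1.34%). Without pool 2 they were 2 higher and 3 lower in mandibular and 1 higher and 3 lower in maxillary pools, with CTSK, a lysosomal collagen-degrading protease, gained in mandibular pools (0.72, limma adjusted p = 0.0446). The matching shares of all probe sets were 1.54% and 1.29% in mandibular and 0.942% and 1.13% in maxillary pools. PLAU, DPP4, MME and ASTL kept both calls without pool 2. PLAU, the urokinase that SERPINE2 inhibits, had signals of 113, 98.3 and 113 in frontonasal, 65.9, 62.4 and 62.8 in mandibular and 59.5, 48.4 and 44.5 in maxillary pools. Its frontonasal values exceeded all others, with differences of -0.63 ± 0.10 (limma adjusted p = 0.0137) and -0.89 ± 0.10 (0.00307), of which the mandibular one was lost without mandibular pool 2 (0.0627) or 3 (0.0593) or frontonasal pool 1 (0.054) or 3 (0.0513). Averaging all probe sets of the gene ended the mandibular call as well (0.27).

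DPP4, a membrane dipeptidase, was at 331, 289 and 380 in frontonasal against 92.3 to 106 in mandibular and 126 to 171 in maxillary pools (-1.58 ± 0.13 and -1.12 ± 0.13, limma adjusted p = 0.0006 and 0.00386). With all its probe sets averaged the adjusted p values were 0.0995 and 0.31. The membrane peptidase MME was lower in mandibular (-1.02 ± 0.21, 0.043) and maxillary pools (-1.64 ± 0.21, 0.00505), and the astacin-like protease ASTL, below background in the frontonasal mass, was at least 1.85-fold and at least 2.33-fold higher. For both genes the mandibular call was lost in 7 of the 9 fits that left out 1 array, and without mandibular pool 1 it reached 0.151 for MME and 0.128 for ASTL. The maxillary call of ASTL was lost without maxillary pool 1 (0.0717) or 2 (0.0804). PCSK6, a proprotein convertase, was the 1 protease that differed between mandibular and maxillary pools (0.62 ± 0.08, adjusted p = 0.0284), a call lost in the 6 fits without a pool of either group (highest 0.118, without maxillary pool 1). Of all probe sets 0.172% were called higher in that comparison.

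Among 19 other inhibitors and regulators, 1 was higher and 0 lower in mandibular than in frontonasal pools, and 2 were higher and 1 lower in maxillary pools, beside the same shares of all probe sets. Without pool 2 the counts were 3 higher and 0 lower in mandibular and 2 higher and 0 lower in maxillary pools, with TFPI and TFPI2 called in both. The matching shares of all probe sets were 1.54% and 1.29% in mandibular and 0.942% and 1.13% in maxillary pools. TFPI2 was at 61.1, 227 and 83.4 in frontonasal, 130 to 171 in mandibular and 152 to 209 in maxillary pools, with pool 2 the highest of all arrays, and without it differed by 0.92 (limma adjusted p = 0.0383) and 1.12 (0.021). SPOCK3, a matrix proteoglycan, was called in both, with all signals below background, and its maxillary call was lost in all 9 fits without 1 array (0.0549 to 0.119). TFPI, the tissue factor pathway inhibitor, was at 19.9, 49.3 and 24.7 in frontonasal and 65.1 to 85.6 in maxillary pools (0.99 ± 0.20, limma adjusted p = 0.0486), and without pool 2, its highest frontonasal value, the difference was 1.24 (0.00273). In mandibular pools it was 0.94 ± 0.20 (0.0549), and 1.2 (0.00257) without pool 2. All 8 other fits without 1 array lost the maxillary call of TFPI, up to 0.153 without maxillary pool 1. SPINT1, an epithelial inhibitor of serine proteases, was lower in maxillary pools (-0.45 ± 0.08, 0.0284), but lost its call in 7 of the 9 fits, with 0.115 without maxillary pool 2 and 0.0713 without frontonasal pool 2.

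Of 31 substrates, 0 were higher and 2 lower in mandibular as in maxillary pools against the frontonasal mass. Of all probe sets 1.18% were called higher and 1.35% lower in mandibular, and 0.905% and 1.34% in maxillary pools. The 2 genes were the ADAM10 substrates CDH2 (N-cadherin) at -1.07 ± 0.13 and -0.83 ± 0.13 (limma adjusted p = 0.00448 and 0.0162) and DLL1, a notch ligand, at -1.54 ± 0.13 and -1.49 ± 0.13 (0.0006 and 0.00083), and both kept both calls without pool 2. CDH2 lost its maxillary call without maxillary pool 2 (0.0732) or 3 (0.0652) or frontonasal pool 1 (0.0533). Between mandibular and maxillary pools 1 substrate was higher and 1 lower, against 0.172% and 0.0911% of all probe sets. Without pool 2 these counts were 2 higher and 1 lower, against 0.32% and 0.133%. With all arrays the basement membrane genes NID1 (0.73 ± 0.10, limma adjusted p = 0.0329) and COL4A1 (-0.61 ± 0.09, 0.0375) differed in opposite directions. Each lost its call in 7 of the 9 fits without 1 array (highest 0.144 without mandibular pool 1 and 0.156 without mandibular pool 3), and both did with all probe sets averaged (0.618 for each). PCSK6 had 0.0864 under that average. Without pool 2 the counts of substrates were 2 higher and 4 lower in mandibular and 1 higher and 3 lower in maxillary pools. The matching shares of all probe sets were 1.54% and 1.29% in mandibular and 0.942% and 1.13% in maxillary pools. Genes that gained a call are named here after their values were seen. COL3A1, a fibrillar collagen, was at 181, 2171 and 316 in frontonasal, 1072, 1031 and 894 in mandibular and 344, 367 and 370 in maxillary pools, so that pool 2 was the highest of all arrays and the other frontonasal pools the lowest. Its mandibular difference from the frontonasal mass was 0.95 ± 0.73 (limma adjusted p = 0.657), and 1.98 ± 0.20 (0.00263) without pool 2, which also gave 1.43 ± 0.18 (0.0269) against maxillary pools. The notch receptor NOTCH2 was lower in both prominences without pool 2 (-0.67 and -0.61, adjusted p = 0.00597 and 0.00976). Under the same omission VCAN, the versican cleaved by ADAMTS9, was lower in mandibular pools (-0.93, 0.0176, against -0.74 and 0.0852 with all arrays), NID1 was higher there (0.49, 0.0419), and COL4A1 was higher in maxillary pools (0.48, 0.0383).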

How the data were processed

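The authors deposited a linear intensity for each of 38535 probe sets on each of 9 arrays, made from biotinylated cRNA (2-cycle Affymetrix procedure from 500 ng total RNA, per the labels' protocols). No source used here names the summarising software. Each deposited column had a mean, without its highest and lowest 2% of values, of 150.03, so the arrays had been scaled before deposit. Here 96 controls were removed and the other probe sets brought to 1 common median with factors of 0.96 to 1.04; limma 3.58.1 in R 4.3.3 was fitted to log2(signal + 16) as group means over all 9 arrays (6 residual degrees of freedom). P values were adjusted by Benjamini-Hochberg over 38439 probe sets per contrast, and called means an adjusted p under 0.05. They measure the spread between pools, whose number limits the precision. The fit was tested on simulated data with independent normal noise, in which 200 of the brighter probe sets were changed. It recovered 62% of changes of log2 1 and 98% of changes of log2 2, with 12 false calls. The observed spreads were shuffled among the probe sets, so in the simulation spread was not tied to brightness. These rates therefore need not hold for members of a given brightness. Smaller changes and changes in dim probe sets were not simulated, so a member that did not pass may still differ.

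Symbols are those of the platform annotation, which gave 1 gene to 27168 of the tested probe sets, several to 177 and none to 11094. The GRCg7b gene table held 63 of the 64 members and gave gene order only. A gene with all arrays of its dimmer group below background has a bound, computed with each dim array raised to its background. Members and lists were chosen with earlier results of these data known. Named are members called, the 3 highest of each family by mean, the 5 largest non-overlapping differences per contrast, members tied to frontonasal pool 2, and a textbook set. Pathway genes are named if called, and PLG for its value in frontonasal pool 2. Alternatives were other pseudocounts, scaling, filters, variance priors, probe set choices, group subsets, a replicate block and leaving out each array. Samples were grouped by title.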

Additional observations from a re-analysis of the deposited data

How the results depend on the processing

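The counts of members passing were 6, 3 and 1 (mandibular against frontonasal, maxillary against frontonasal, mandibular against maxillary) and 3 in the F test. Leaving out 1 array gave 1 to 6, 1 to 3, 0 to 1 and 2 to 6. Fits to only the 2 groups compared gave 2, 2 and 1, and a pseudocount of 1 gave 1, 2, 0 and 2. With a pseudocount of 32 the F test passed 5 and the comparison of mandibular with frontonasal pools 8. The intensity trend gave 5 in the maxillary against frontonasal comparison and 6 in the F test. Without the dimmest 40% of probe sets the mandibular against maxillary count was 2 and the F test 6. Averaging all probe sets of a gene gave 0 between mandibular and maxillary pools and reversed SERPINF1 in maxillary against frontonasal pools to -0.1. It also ended the calls of ADAMTSL1 and ADAMTS6 in mandibular against frontonasal pools. The other member counts under this averaging are not given here. Quantile normalization and no scaling gave 6, 3 and 1, with 4 in the F test. Except for the fit without frontonasal pool 2, the matching shares of all probe sets are not given for these settings or the replicate block below. A change in these member counts therefore cannot be told from a change over all probe sets. The filter of dim probe sets and the averaging also tested fewer features.

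The replicate numbers share no stated batch, and deviations of same-numbered pools correlated at 0.02 to 0.12. A replicate block passed 5, 2, 1 and 3 members. Under it ADAM33 (adjusted p = 0.0647), ADAMTS18 (0.0611), ADAMTS12 (0.0838) and SERPINF1 (0.0563) lost their calls. SERPINH1 passed in both comparisons with the frontonasal mass (limma adjusted p = 0.00758 and 0.0157). Over all probe sets the counts were 974, 864, 101 and 1014, and ranged over alternatives from 526 to 1088, 412 to 997, 15 to 174 and 622 to 1171. The causes of these changes were not tested. The members' median difference stayed within -0.13 to -0.03, -0.18 to -0.06 and 0.01 to 0.05. Without the dimmest 40% MMP27 was not tested. Members near background cannot be sized beyond a bound.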
